A study of Homo sapiens with 12 samples.

Results

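The IFIT genes (interferon-induced proteins with tetratricopeptide repeats) were examined in C4-2 prostate cancer cells treated with a PBK inhibitor or with vehicle. The members were IFIT1, IFIT2, IFIT3 and IFIT5, the IFIT genes on chromosome 10, matched by symbol to the Ensembl identifiers of the count files. They were 4 of 54127 genes in the files and 4 of the 14505 genes with enough counts to test. They were selected on their measured difference between PBKi and DMSO, which was already known, so their values in that comparison are described here without a test. C4-2 is an established prostate cancer line that descends from LNCaP cells and responds to androgen. One group received DMSO, the vehicle, and the other received 1 µM PBKi, which is HI-TOPK-032, a chemical inhibitor of the PDZ binding kinase PBK, each for 6 h in RPMI with serum. All 12 samples were of the same line with no genetic change, 6 per group, and the sources do not state whether replicates were separate cultures. The p-values therefore measure the spread between these samples, which may be technical.

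IFIT genes are classical interferon-stimulated genes. Cells that sense foreign or misplaced nucleic acid make interferon, which signals through its receptors and JAK kinases to a transcription factor complex that contains STAT2 and IRF9, and this complex binds the interferon-stimulated response element (ISRE) in promoters. Interferon regulatory factors such as IRF3 and IRF1 can bind the same kind of element directly, without interferon. IFIT1 binds RNA whose cap lacks methylation and blocks its translation. IFIT2 and IFIT3 form complexes with IFIT1 and with each other, IFIT5 binds RNA with a bare triphosphate end, and IFIT1 and IFIT2 contact the translation initiation factor eIF3.

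The members lie side by side on the plus strand of chromosome 10 within 137.9 kb. In GRCh37, with gene models of GENCODE 44 mapped to that build, IFIT2 (ENSG00000119922) spans chr10:91043451-91069028 and IFIT3 (ENSG00000119917) spans chr10:91087064-91137230. IFIT1 (ENSG00000185745) spans chr10:91152303-91166244 and IFIT5 (ENSG00000152778) spans chr10:91174325-91181362. IFIT1B, a relative that did not belong to the members by name, lies between IFIT3 and IFIT1 at chr10:91137813-91144962 and had 0 counts in all 12 samples, which allows up to 0.0151 CPM over the 12 libraries by counting error alone. Of all stretches of 40 bases in IFIT1 transcripts, the length of a read, 1.26% also occurred in another IFIT gene, and none did for IFIT2, IFIT3 or IFIT5. Stretches that occurred in any other annotated gene, overlapping genes included, made up 2.19% for IFIT1, 10.13% for IFIT2, 5.21% for IFIT3 and 0% for IFIT5. Exons of LIPA on the opposite strand and of ENSG00000232110 covered 13.62% of IFIT2 exon bases, and LIPA exons covered 1.86% of those of IFIT3. Of the 589 IFIT2 bases covered, only 65 were covered from the opposite strand, so strand would not separate the rest. Library strand was not given in the sources used here, so reads in the stretches covered from the opposite strand cannot be assigned by strand either.

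The promoter sequences of 3 members are shown because the ISRE is the element through which interferon signalling reaches them. They come from RefSeq with GRCh38.p14 coordinates, in windows of 300 bases around each transcription start. IFIT2 had no entry. Capitals mark the matches to the ISRE core that lie wholly upstream of the start. The core is TTTC, any 2 bases and TTTC again, searched on both strands (on the other strand it reads GAAA, any 2 bases and GAAA). Every sequence is the plus strand, which is the coding strand, and ends upstream of the start.
IFIT1, chr10:89392497-89392539: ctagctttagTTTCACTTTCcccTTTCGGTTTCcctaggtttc
IFIT3, first start, chr10:89327831-89327894: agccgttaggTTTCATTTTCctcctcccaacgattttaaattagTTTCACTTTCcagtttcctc
IFIT3, second start, chr10:89332425-89332497: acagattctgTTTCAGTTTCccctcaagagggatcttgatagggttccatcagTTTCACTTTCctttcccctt
IFIT5, chr10:89414513-89414567: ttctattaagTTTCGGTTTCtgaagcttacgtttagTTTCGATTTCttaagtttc

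Each of these promoters held at least 2 ISRE core matches. In IFIT1 both matches lay within the stretch from -116 to -94, counted in bases from the start. The pair at the first start of IFIT3 began at -156 and -122, and the pair at its second start began at -94 and -51. IFIT5 had a further match from -4 to 5, across the start itself, so that its window held 3, and none of its matches overlapped. Among 35116 RefSeq promoter windows of the same length, 3.57% held at least 1 match, 0.259% held at least 2 and 0.037% held at least 3. The promoter of IFIT1B held none. A second interferon element, the gamma-activated site written as TTCNNNGAA, which reads the same on both strands, occurred in 7.66% of all windows and in none of those of IFIT1, IFIT3, IFIT5 or IFIT1B. A match is a description of the letters and was not tested as a binding site.

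**Figure D1:**
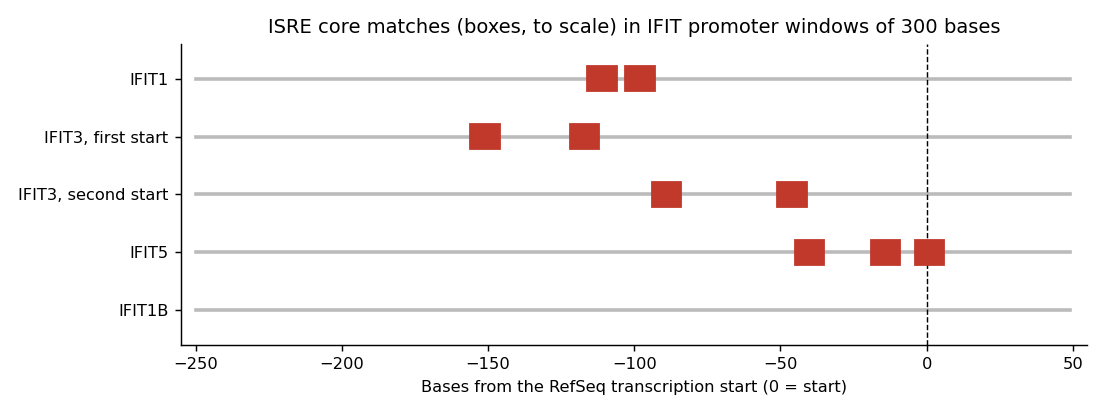
Positions of ISRE core matches (boxes, drawn to scale) in the RefSeq promoter windows of IFIT genes, in bases from the transcription start at 0. IFIT1 and both starts of IFIT3 have 2 matches upstream of the start, IFIT5 has 3 with the last across the start, and IFIT1B has none.

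The deposited values are counts of reads per gene. Reads on genes ranged from 9663203 to 28029908 per sample in DMSO and from 13122415 to 22817803 in PBKi. Levels below are CPM, read counts scaled to the size of the library with TMM factors (an adjustment for its composition), on a linear scale. A log2 fold change of PBKi over DMSO, with its standard error, comes from the fit across all genes. The markers of prostate epithelium were all measured, with summed levels of 5406 to 6526 CPM in DMSO and 3508 to 4248 CPM in PBKi. Of these 10, 4 fell and 1 rose, against 21.5% lower and 20.1% higher among all genes tested, and no test of the list was made. Those that fell included KLK3 and TMPRSS2, which are androgen-regulated, while FOLH1 rose (log2 fold change 0.33, adjusted p = 0.000127, edgeR). Summed levels of 13 blood cell markers were 1.88 to 2.52 CPM in DMSO and 2.49 to 3.92 CPM in PBKi, with MS4A1, S100A8 and HBB at 0 in all samples and CD4 higher in PBKi (log2 fold change 0.62, adjusted p = 0.0307, edgeR). Stromal and endothelial markers, 7 of 8 of them in the files, summed to 22.4 to 28.2 CPM in DMSO and 20.98 to 26.2 CPM in PBKi, most of it COL1A1. Their part in the values below was not tested. Replicates 1 to 3 stood apart from replicates 4 to 6, with scores of 4.9 to 17.1 against -27.6 to -3.9 over both groups on a principal component with 9.76% of the variance, and no label explains these sets. In bulk RNA, more cells with a transcript and more transcript per cell cannot be told apart.

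IFIT2 had the largest difference of the family. In DMSO replicates 1 to 6 it measured 0.624, 0.470, 0.505, 0.831, 0.325 and 0.587 CPM, and in PBKi replicates 1 to 6 it measured 70.8, 79.97, 76.1, 74.8, 67.3 and 64.6 CPM. The groups did not overlap, and the lowest PBKi sample held 875 counts against at most 14 in any DMSO sample. The log2 fold change was 6.97 (SE 0.113), the rank of 7 among 14505 genes by size of the rise. Over the summed libraries the level was 128-fold higher in PBKi, with a 95% interval of 98.5 to 171 that covers counting error only.

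IFIT3, the partner that stabilises IFIT1, had the lowest mean CPM of the family without the inhibitor. In CPM its DMSO range overlapped those of IFIT1 and IFIT2. Its DMSO levels were 0.336, 0.549, 0.216, 0.346, 0 and 0.252 CPM in replicates 1 to 6, from 0 to 7 counts per library. Its PBKi levels were 21.3, 23.3, 23.8, 20.1, 15.0 and 15.4 CPM. No DMSO sample reached 10 counts, so IFIT3 was kept for the fit only through its PBKi samples. For IFIT1 4 DMSO samples and for IFIT2 3 reached 10 counts, short of the 6 samples of the filter. These 2 members therefore also needed their PBKi samples to be kept. The values of IFIT3 follow. Its log2 fold change was 6.07 (SE 0.228, rank 19), and the summed level was 69.9-fold higher in PBKi (95% counting interval 48.2 to 105).

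IFIT1, the sensor of unmethylated caps, measured 0.576, 1.02, 1.12, 0.900, 0.541 and 0.755 CPM in DMSO replicates 1 to 6. In PBKi it measured 15.8, 19.8, 16.4, 12.8, 11.3 and 11.4 CPM. Again every PBKi sample lay above every DMSO sample. The log2 fold change was 4.09 (SE 0.194, rank 56), and the summed level was 17.1-fold higher (95% counting interval 13.7 to 21.6).

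IFIT5, at the far end of the cluster, differed little. It measured 5.61, 5.49, 5.26, 3.88, 5.41 and 4.11 CPM in DMSO and 7.59, 6.91, 5.55, 6.65, 6.31 and 5.47 CPM in PBKi. The groups overlapped, with PBKi replicates 3 and 6 inside the DMSO range. Its log2 fold change was 0.36 (SE 0.117, rank 2088) and the summed level was 1.26-fold higher (95% counting interval 1.12 to 1.42). Thus 3 of the 4 members had PBKi samples wholly above DMSO samples, a pattern shown by 10.5% of all genes tested (9.68% had the opposite pattern) and one that the choice of members had already used.

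**Figure D2:**
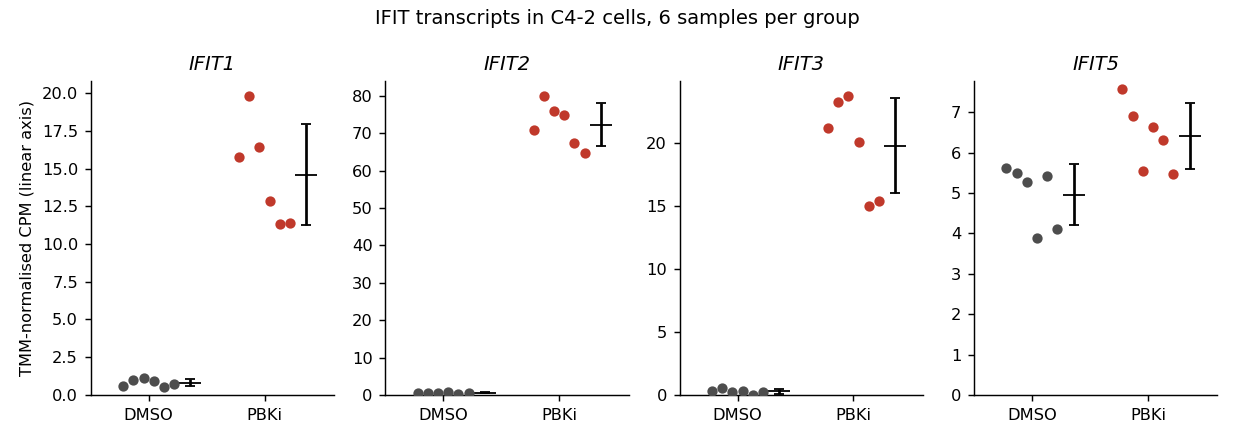
TMM-normalised CPM of the IFIT members in each sample (points, in replicate order from left to right), with the mean and SD of 6 samples per group beside them. The axes are linear, start at 0 and differ between panels. IFIT1, IFIT2 and IFIT3 lie near 0 in DMSO and from 11.3, 64.6 and 15.0 CPM upwards in PBKi, whereas the IFIT5 groups overlap.

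The members changed places in their order of abundance. Scaled to exon length, as CPM per kb of exon, IFIT5 was highest in DMSO with 1.14 ± 0.174 (SD, n = 6). IFIT1 followed with 0.177 ± 0.0510, IFIT2 with 0.129 ± 0.0393 and IFIT3 with 0.0559 ± 0.0356 CPM per kb. The ranges of IFIT1 and IFIT2 overlapped, as did those of IFIT2 and IFIT3, and only IFIT5 stood clear of the others. In PBKi, IFIT2 was highest with 16.7 ± 1.33 CPM per kb and stood clear of IFIT3 with 3.91 ± 0.749 and IFIT1 with 3.16 ± 0.726, whose ranges overlapped. IFIT5 was lowest with 1.47 ± 0.187 CPM per kb, below every PBKi sample of the other members. The family as a whole, the sum of the 4 levels, had a median of 1.52 CPM per kb (1.29 to 1.69) in DMSO and of 25.6 CPM per kb (21.7 to 29.0) in PBKi. IFIT5 made up 66.1% to 86.6% of that sum in DMSO samples and 4.69% to 6.76% in PBKi samples. The share of IFIT2 was 5.25% to 14.3% in DMSO samples and 63.6% to 69.4% in PBKi samples.

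The spread of the members between PBKi samples was not used in choosing them. Between PBKi samples the coefficient of variation was 23.0% for IFIT1, 19.1% for IFIT3, 12.7% for IFIT5 and 7.95% for IFIT2. Counting alone would give 6.52%, 5.55%, 9.88% and 2.92%, in the same order. In DMSO, where counts were few, it was 28.7% for IFIT1 and 30.5% for IFIT2 beside 28.8% and 34.9% from counting, 63.8% for IFIT3 beside 48.3%, and 15.3% for IFIT5 beside 11.9%. IFIT1, IFIT2 and IFIT3 were each above their PBKi mean in replicates 2 and 3 and below it in replicates 5 and 6. In PBKi replicate 2, for example, IFIT1 stood at 135.9% of its mean, IFIT3 at 117.5% and IFIT2 at 110.7%, while in replicate 6 they stood at 78.0%, 77.9% and 89.5%.

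Over the 6 PBKi samples, log2 CPM of IFIT1 and IFIT3 had a Pearson r of 0.904 (exact permutation p = 0.0139, two-sided) and a Spearman rho of 0.943 (exact permutation p = 0.0167). IFIT2 and IFIT3 had an r of 0.897 (exact permutation p = 0.0333) with a rho of 0.829 (exact permutation p = 0.0583). IFIT1 and IFIT2 had an r of 0.851 (exact permutation p = 0.0389) with a rho of 0.886 (exact permutation p = 0.0333). After Benjamini-Hochberg adjustment over the 12 relations computed, 6 pairs in each group, none of these passed 0.05, with adjusted exact permutation p = 0.156 for each of the 3 Pearson values and 0.200 to 0.233 for the Spearman values. Without the 2 samples farthest from the median of the first gene named, r was 0.924 for IFIT1 with IFIT3, 0.859 for IFIT2 with IFIT3 and 0.675 for IFIT1 with IFIT2. With the mean of each of the sets (replicates 1 to 3 and 4 to 6) removed, the same 3 values were 0.615, 0.862 and 0.860. IFIT5 had r of 0.327 to 0.402 with the other members in PBKi (adjusted exact permutation p = 0.663). The difference between these values of r was not tested. In DMSO the 6 values of r ran from -0.66 to 0.66 with adjusted exact permutation p of 0.420 to 0.922.

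**Figure D3:**
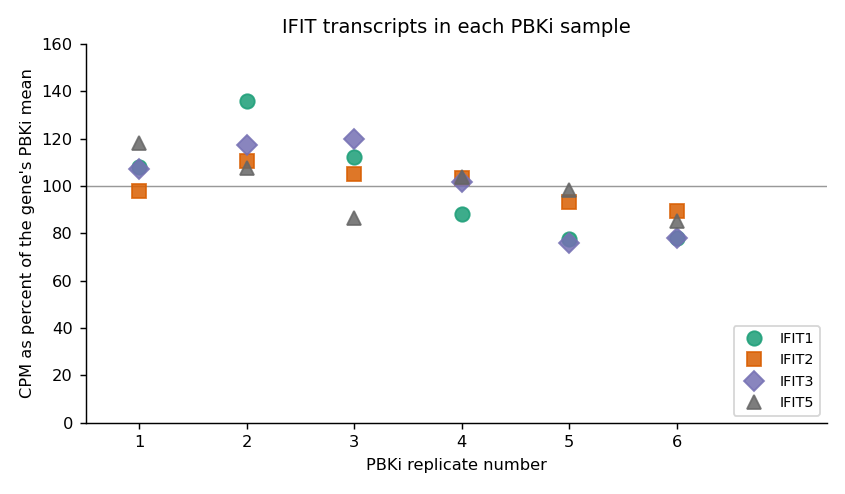
Level of each IFIT member in each PBKi sample as a percent of that gene's PBKi mean (100, grey line), by replicate number, which is a name and not an order. IFIT1 ranges from 77.7% to 135.9% and IFIT3 from 75.8% to 119.9%, both high in replicates 2 and 3 and low in replicates 5 and 6, and IFIT2 stays between 89.5% and 110.7%.

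The sets differed in level as well. The PBKi mean of IFIT1 was 17.3 CPM in replicates 1 to 3 and 11.9 CPM in replicates 4 to 6, that of IFIT3 22.8 and 16.9 CPM, and that of IFIT2 75.6 and 68.9 CPM. The log2 fold change had the same direction in each set. In replicates 1 to 3 alone it was 4.25 for IFIT1, 7.13 for IFIT2, 6.11 for IFIT3 and 0.28 for IFIT5. In replicates 4 to 6 alone it was 3.96, 6.79, 6.19 and 0.49, in the same order.

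The genes most like the family in these sample-to-sample deviations were BBS4, CTBS, YIPF6, TOM1L1 and MEAF6, among 10037 genes whose mean log2 CPM reached 3. The measure was the Pearson r, over 12 samples, of a gene's deviations from its group means with the mean deviation of the IFIT members, and it ran from 0.967 for BBS4 to 0.937 for MEAF6. These were the highest values of all genes compared, of which 7.08% exceeded 0.7, and no gene among the 10 most like was in any list of the interferon pathway. These genes did not share the response of IFIT1, IFIT2 and IFIT3 to PBKi, with log2 fold changes from -0.30 for BBS4 to -0.13 for YIPF6. The measure also rests on few DMSO counts. DMSO replicate 5, the library with the fewest reads, had 0 IFIT3 counts, and on the log2 scale this floor value weighs on the mean deviation. Over the 6 PBKi samples alone, r for these 5 genes ran from 0.918 to 0.962. All samples share the sets named above, so this likeness is a description only.

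Genes around the cluster were measured to see how far along the chromosome the difference reached. The 10 neighbours were protein-coding genes from ANKRD22 to KIF20B, including IFIT1B, and 7 had enough counts to test. Of those, 2 rose, 1 fell and 4 did not pass, with a median log2 fold change of -0.07, where 41.7% of all genes tested passed, 20.1% higher and 21.5% lower, and the median was -0.01. LIPA, the lysosomal acid lipase whose exons overlap those of IFIT2 and IFIT3, measured 86.1 to 108 CPM in DMSO (median 99.6) and 83.1 to 101 CPM in PBKi (median 94.4), with a log2 fold change of -0.07 (SE 0.0615, adjusted p = 0.393 by the quasi-likelihood test of edgeR and the Benjamini-Hochberg method, as for every adjusted p of a gene here). CH25H, an interferon-stimulated gene that makes 25-hydroxycholesterol, had 0 counts in every sample. SLC16A12, a transporter, had 3 counts over the DMSO libraries and 22 over the PBKi libraries and was not tested.

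The 2 neighbours that rose lie farthest upstream. ANKRD22 rose from a median of 1.23 CPM (0.757 to 1.80) to 3.74 CPM (2.42 to 4.06), a log2 fold change of 1.42 (SE 0.182, adjusted p = 8.88e-06, edgeR). STAMBPL1, a deubiquitinating enzyme, rose by 0.72 on the log2 scale (SE 0.136, adjusted p = 0.000442, edgeR). PANK1, which starts coenzyme A synthesis, fell by 0.22 (SE 0.0575, adjusted p = 0.00585, edgeR). FAS, the death receptor, and KIF20B, a mitotic kinesin, had log2 fold changes of -0.10 and -0.12 (adjusted p = 0.557 and 0.157, edgeR). ACTA2 (smooth muscle actin) had 0.64 (SE 0.299, adjusted p = 0.0957, edgeR), and without PBKi replicate 4 this became 0.78 with adjusted p = 0.0455 (edgeR). Exons of other genes cover 36.23% of ACTA2 and 25.74% of FAS exon bases, so the counts of these 2 genes are less certain. Reads ambiguous between genes were counted in a row of their own, and how many came from these 2 genes is not known.

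**Figure D4:**
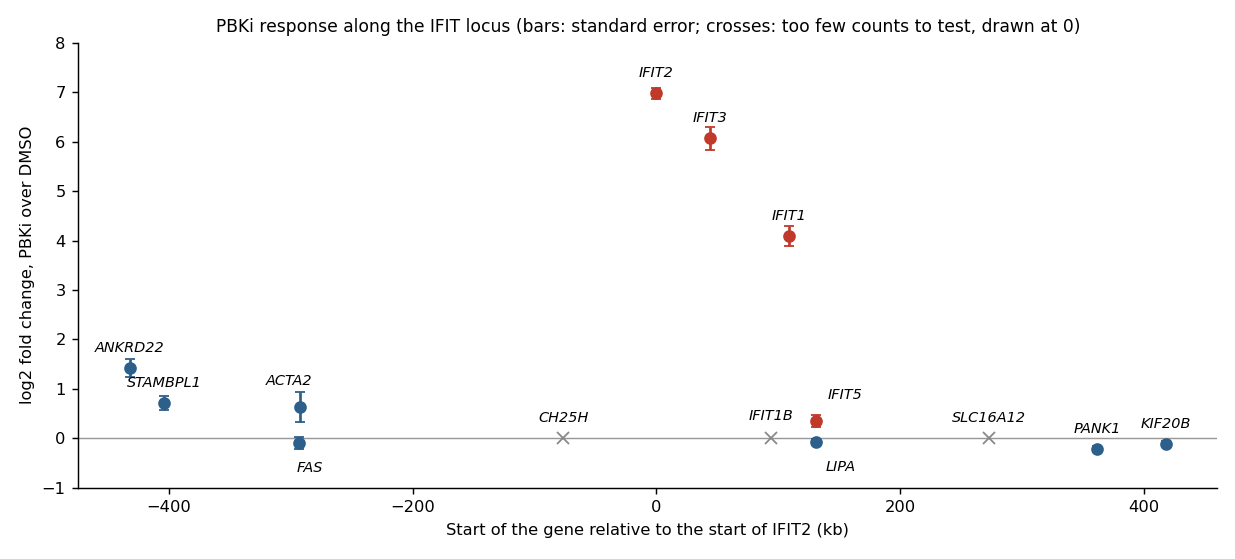
log2 fold change of PBKi over DMSO (vertical axis, bars show the standard error) against the distance in kb of each gene's start from the start of IFIT2, for IFIT members (red) and neighbours (blue), with genes too low to test as crosses at 0. The value is 6.97 at IFIT2, 6.07 at IFIT3, 4.09 at IFIT1 and 0.36 at IFIT5, and IFIT1B, between IFIT3 and IFIT1, had 0 counts. LIPA, at -0.07, is drawn beside IFIT5 by its outermost start on the opposite strand, though it spans chr10:90973326-91174314. A trend with position was not tested.

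The ligands of the pathway were barely detectable. Of 21 interferon genes, 17 had 0 counts in all 12 samples, among them all 13 listed IFNA genes and IFNG, and none had enough counts to test. IFNB1, interferon beta, had 0 counts in every DMSO sample and 0, 10, 5, 5, 2 and 1 counts in PBKi replicates 1 to 6. The 23 PBKi counts correspond to 0.225 CPM, which is 7.27 times the 0.031 CPM that 3 counts over the DMSO libraries would give. This ratio leaves out the counting error of the 23 counts and is no lower bound. PBKi replicate 2 held 10 of these counts, and without it the level was 0.148 CPM, 4.79 times the same floor. IFNL1, a type III interferon, had 1 count over the DMSO libraries and 14 over the PBKi libraries, IFNL2 had 0 and 1, and IFNL3 had 5 and 2.

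Among the 12 genes of the interferon receptors and JAK-STAT signalling, 11 were tested, of which 5 rose, 2 fell and 4 did not pass, against 20.1% higher and 21.5% lower among all genes, with a median log2 fold change of 0.14. Of the receptor chains for type I interferon, IFNAR1 rose from a median of 106 CPM (97.0 to 114) to 126 CPM (122 to 138), a log2 fold change of 0.27 (SE 0.0544, adjusted p = 0.000671, edgeR). IFNAR2 fell by 0.33 (SE 0.0754, adjusted p = 0.00215, edgeR), and IFNGR1, a chain of the interferon gamma receptor, fell by 0.40 (SE 0.0752, adjusted p = 0.000408, edgeR). The kinases JAK2 and JAK1 rose by 0.74 (SE 0.0722, adjusted p = 3.54e-07, edgeR) and 0.67 (SE 0.139, adjusted p = 0.000862, edgeR), while TYK2, the other kinase of the type I receptor, had 0.12 (adjusted p = 0.184, edgeR). Without DMSO replicate 5, TYK2 gave 0.16 with adjusted p = 0.0470.

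STAT2 and IRF9, which act in the ISRE-binding complex, differed little at the level of RNA. STAT2 measured 41.5 to 49.7 CPM in DMSO (median 46.6) and 49.1 to 54.8 CPM in PBKi (median 51.0), and rose by 0.17 on the log2 scale (SE 0.0544, adjusted p = 0.0202, edgeR). IRF9 had a log2 fold change of 0.15 (SE 0.161, adjusted p = 0.491, edgeR), with overlapping groups of 3.03 to 6.31 CPM and 4.42 to 6.36 CPM. The call of STAT2 was close to the threshold, and without DMSO replicate 1 or DMSO replicate 3 it had adjusted p of 0.0606 and 0.0504 (edgeR).

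Of 8 interferon regulatory factors, 6 were tested and only IRF1 rose, against 20.1% of all genes. IRF1, an activator that binds the ISRE, went from a median of 2.59 CPM (1.87 to 3.12) to 8.46 CPM (7.29 to 9.09), a log2 fold change of 1.69 (SE 0.114, adjusted p = 3.42e-09, edgeR). IRF3, the factor switched on directly by nucleic acid sensors, had -0.17 (SE 0.0684, adjusted p = 0.0599, edgeR) and IRF7, which amplifies type I interferon, had 0.15 (SE 0.10, adjusted p = 0.249, edgeR). The last 2 results changed when single libraries were left out, and that of IRF3 changed with the model too. With the replicate number as a block IRF3 had adjusted p = 0.0416, and with a covariate for the replicate sets 0.0443 (edgeR). Without DMSO replicate 6 or PBKi replicate 1, IRF3 gave -0.20 and -0.19 with adjusted p = 0.0136 and 0.0414 (edgeR), and without DMSO replicate 5, IRF7 gave 0.23 with adjusted p = 0.0302.

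Upstream of IRF3 stand the sensors of nucleic acid and their adaptors. Of 12 listed genes, 11 were matched in the files and 9 were tested, and 6 rose, 0 fell and 3 did not pass, against 20.1% higher and 21.5% lower among all genes, with a median log2 fold change of 0.34. RIGI, the cytosolic sensor of triphosphate RNA, rose from a median of 4.63 CPM (4.31 to 5.55) to 16.02 CPM (13.7 to 22.3), a log2 fold change of 1.83 (SE 0.130, adjusted p = 7.79e-09, edgeR). TLR3, the endosomal sensor of double-stranded RNA, rose by 1.67 (SE 0.235, adjusted p = 2.26e-05, edgeR) from low levels of 0.416 to 0.938 CPM. DHX58 and IFIH1, relatives of RIGI, rose by 0.91 (SE 0.164, adjusted p = 0.000284, edgeR) and 0.84 (SE 0.102, adjusted p = 4.44e-06, edgeR). MAVS, the adaptor of RIGI and IFIH1, rose by 0.34 (SE 0.0831, adjusted p = 0.00360, edgeR), and STING1, the adaptor of DNA sensing, had 0.21 (SE 0.194, adjusted p = 0.405, edgeR).

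The other interferon-stimulated genes form the list nearest to IFIT in regulation. Of 61 listed, 48 were tested, and 36 rose, 2 fell and 10 did not pass, which is 75% higher against 20.1% of all genes. Their median log2 fold change was 0.58, below that of IFIT1, IFIT2 and IFIT3, and above that of IFIT5. PBKi samples lay wholly above DMSO samples in 30 of the 48, against 10.5% of all genes tested. The rises were uneven, as 4 genes had a log2 fold change of at least 4 and 14 of at least 1, while 22 of the genes that rose had less than 1. Some of the 48 were kept for the fit only through their PBKi samples. OASL, RSAD2 and IFI16, for example, had at most 4, 9 and 3 counts in any DMSO sample, below the 10 that the filter asked for. Such genes could enter only by being high in PBKi, so they add to the rises by construction. These counts describe a list drawn up with earlier results of these data known, and no test of the list was made.

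The genes of this list with the largest rises reached the range of the IFIT genes. OASL, an OAS relative that aids RIGI, went from 0 to 0.168 CPM in DMSO to 26.9 to 39.7 CPM in PBKi (median 37.8). Its log2 fold change was 8.06 (SE 0.210). RSAD2 (viperin), which makes a chain-terminating nucleotide, went from 0 to 0.485 CPM to 15.7 to 22.1 CPM. Its log2 fold change was 6.31 (SE 0.241). IFI16, a DNA sensor, and IFI44 rose by 4.99 (SE 0.397) and 4.87 (SE 0.203, adjusted p = 6.84e-12, edgeR). OASL, RSAD2 and IFI16 were kept for the fit only through their PBKi samples, so their values are given without a test. IFI16 had only 5 counts over the DMSO libraries, and without DMSO replicate 1 its log2 fold change was 5.78. Among the 20 genes with the largest rises in the whole table, 2 were IFIT genes and 2, OASL and RSAD2, were other interferon-stimulated genes. Some well-known members of the list, chosen here after their values were seen, lay elsewhere. USP18, a brake on the receptor, measured 16.2 to 20.5 CPM in DMSO and 16.1 to 19.4 CPM in PBKi (log2 fold change 0.06, adjusted p = 0.507, edgeR). EIF2AK2 (PKR) had -0.01 (adjusted p = 0.874, edgeR), IFITM2 fell by 0.43 (adjusted p = 0.00163, edgeR), and MX1 rose by 0.85 (adjusted p = 0.000459, edgeR).

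ISRE core matches were present on both sides of that division. Of the 36 interferon-stimulated genes that rose, 32 had a RefSeq promoter and 22 of these held a match. Of the 10 that did not pass, 7 had a promoter and 6 held a match (BST2, EIF2AK2, IFITM1, IFITM3, SHISA5 and TRIM14). In all genes tested with a promoter entry, 10650 of them, 3.70% held a match.

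**Figure D5:**
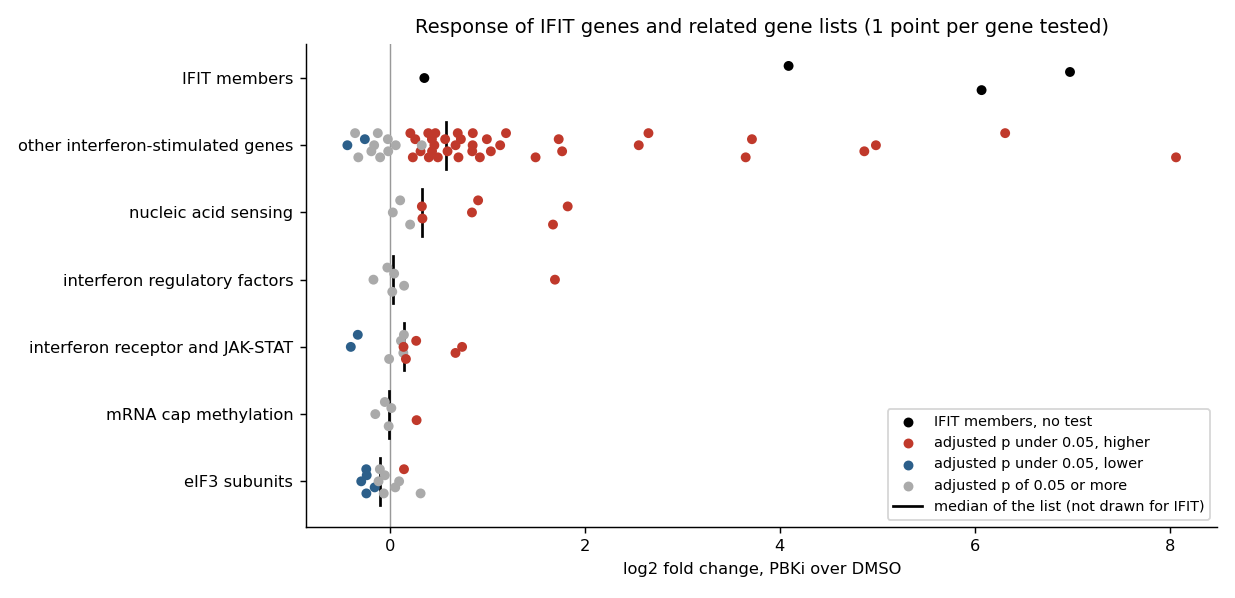
log2 fold change of PBKi over DMSO for every tested gene of each list, with the median of the list as a bar and colours for the edgeR call at an adjusted p of 0.05. IFIT members (black) are shown without a test. The interferon-stimulated genes have a median of 0.58 and reach 8.06, the sensors have a median of 0.34, and the receptor, cap methylation and eIF3 lists stay between -0.40 and 0.74.

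The partners on which IFIT proteins act were measured last. Of 5 genes of mRNA cap methylation, some of whose marks shield a transcript from IFIT1, 1 rose and 4 did not pass, a share of 20% near the 20.1% of all genes. The gene that rose was CMTR2, which methylates the second transcribed nucleotide (log2 fold change 0.28, SE 0.0739, adjusted p = 0.00620, edgeR). Of the 13 subunits of eIF3, the initiation factor that IFIT proteins contact, 1 rose, 5 fell and 7 did not pass, against 20.1% higher and 21.5% lower among all genes, with a median log2 fold change of -0.10. The falls were small, the largest being those of EIF3L with -0.29 (SE 0.0574, adjusted p = 0.000597, edgeR) and EIF3D with -0.24 (SE 0.0591, adjusted p = 0.00350, edgeR). EIF3E and EIF3K had -0.24 each (adjusted p = 0.00390 and 0.00838, edgeR). EIF3C shares its sequence with a near-identical copy, so its count is uncertain.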

How the data were processed

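C4-2 cells were profiled by RNAseq in 6 DMSO and 6 PBKi samples, grouped by the sample labels. The authors aligned single-end reads of 40 bases to GRCh37 with TopHat 2.0.4, counted reads per gene with HTSeq-count 0.5.3p9 and tested with DESeq 1.10.1 (names and versions per the paper and the submitters' processing notes). The deposited counts are raw, in 47 lane files of 54127 genes. Lanes were summed per library, as their counts agreed within sampling noise (chi-square over degrees of freedom from 0.990 to 1.02). Non-gene rows held, for example, 5.74% to 9.30% of reads outside genes and 3.87% to 4.35% ambiguous between genes, and stayed out of all totals. Labels and paper name different RNA extraction kits, and the labels mention flow sorted cells.

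Genes reaching 10 counts in 6 or more samples were fitted with edgeR 4.0.16 in R 4.3.3 (TMM factors, quasi-likelihood test, no covariate, Benjamini-Hochberg adjustment over 14505 genes at 0.05). In fits that leave out a sample the filter asked for 5 samples. The standard error of a log2 fold change was computed from its F statistic. log2 CPM used a prior count of 2. Correlations were tested by exact permutation of pairings with scipy 1.17.1. Promoters were RefSeq, GRCh38.p14. The fit was tested on simulated counts. Alternatives were DESeq2 1.42.0, RLE factors, other filters, lanes 6 to 8, a replicate block, a covariate for replicate sets, another prior count and each sample left out. Fits within replicates 1 to 3 and 4 to 6, correlations with set means removed and the IFNB1 ratio without each PBKi library were added after seeing the data.

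Members and lists were chosen with earlier results of these data known. Genes named were the members, up to 4 genes per list with the largest change among those that passed, fixed signalling genes of the interferon pathway, all locus neighbours and the 5 genes most like IFIT. A gene that the rule would name is not reported here. Marker genes and any others named were chosen after their values were seen. Depth was 9663203 to 28029908 reads on genes, and intervals cover counting error only.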

Additional observations from a re-analysis of the deposited data

Results flagged for a closer look

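Each gene named was examined in its 6 samples per group for 1 value far from the rest (a gap to its nearest neighbour, over the whole range, above Dixon's 95% critical value). Of 89 groups examined, 5 had such a value, and chance gives about 5%. In DMSO replicate 3, RIGI stood at 5.55 CPM where the other samples lay at 4.31 to 4.71 CPM, and FAS stood at 5.55 CPM where the others lay at 3.67 to 4.08 CPM. OASL was at 0 CPM in DMSO replicate 2, against 0.108 to 0.168 CPM in the other DMSO samples. IFNB1 reached 0.691 CPM in PBKi replicate 2, the library with 10 of its 23 counts, against 0 to 0.223 CPM in the other PBKi samples. The same library had the highest IFIT1 and IFIT2 levels. PBKi replicate 1, with 0 IFNB1 counts, had IFIT1 at 108.1%, IFIT3 at 107.3% and IFIT2 at 98.0% of their PBKi means. The relation was not tested. KIF20B stood at 101 CPM in DMSO replicate 6, against 75.1 to 84.8 CPM in the others. No IFIT member had such a value in either group.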

How the results depend on the processing

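The log2 fold changes of the members kept their direction under all 21 alternatives. They ranged from 3.97 to 4.26 for IFIT1, 6.91 to 7.11 for IFIT2, 5.93 to 6.29 for IFIT3 and 0.30 to 0.40 for IFIT5 with each sample left out. Without a filter on low counts, the median of the locus neighbours was 0.29 instead of -0.07, 2 interferon genes and 3 receptor genes rose, and 0 eIF3 subunits rose. STAT2 then had adjusted p of 0.0706 (edgeR). With at least 50 counts, 1 neighbour rose. Lanes 6 to 8 gave 2 eIF3 subunits that rose. Leaving out single samples gave -0.10 to 0.03 for the neighbour median, with DMSO replicate 3 giving the value above 0, 1 to 3 falls among other interferon-stimulated genes, 1 to 2 rises and 0 to 1 falls among interferon regulatory factors, 0 to 1 falls in cap methylation and 1 to 2 rises in eIF3.

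Same-numbered samples deviated together with correlations of 0.089 to 0.299, with a mean of 0.198 against -0.04 over the 30 other pairs. Same-numbered samples always lie in the same set (replicates 1 to 3 or 4 to 6), while many of the other pairs cross the sets. Number and set therefore cannot be told apart in these means. The correlation was under 0.1 in 1 of 6 pairs, and 3 of 6 numbers correlated best with their own. The main fit took the samples to share only a number, and whether they were paired was not tested. With the replicate number as a block, IFIT1 gave 4.13, IFIT2 6.99, IFIT3 6.13 and IFIT5 0.36, the genes called over the whole table were 3485 higher and 3803 lower, and 1 regulatory factor (IRF3, adjusted p = 0.0416, edgeR), 4 other interferon-stimulated genes and 1 cap methylation gene fell, the same 3 counts as with the covariate for replicate sets. Under the block 3 neighbours rose instead of 2, with ACTA2 at 0.72 (adjusted p = 0.0477, edgeR).

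In replicates 1 to 3 alone, 1 regulatory factor fell and 4 eIF3 subunits rose. Replicates 4 to 6 alone gave 1303 genes higher and 1216 lower, 2 receptor genes that rose and 1 that fell, 2 eIF3 subunits that fell and 0 that rose, 0 neighbours and 0 other interferon-stimulated genes that fell, and 0 cap methylation genes that rose, with fewer samples in the fit. Without the 2 samples farthest from the median, r in DMSO turned to -0.46 (IFIT1 and IFIT2), 0.79 (IFIT1 and IFIT5) and -0.40 (IFIT2 and IFIT3), and in PBKi to -0.39 (IFIT2 and IFIT5) and -0.53 (IFIT3 and IFIT5), each over 4 samples. The causes were not tested. Few DMSO counts limit the base level of IFIT1, IFIT2 and IFIT3 and with it the size of their folds.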
